A study of Mus musculus with 4 samples.

Results

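The genes described here are 10 precursors of neuropeptides that are made by neurons of the spinal cord, by the sensory neurons that project to it or by neurons of the gut wall. They are *Penk*, *Pdyn*, *Tac1*, *Npy*, *Grp*, *Calca*, *Adcyap1*, *Nmu*, *Cartpt* and *Gal*. They were chosen by name, and all 10 had a probe among the 20139 named genes of the array. The study hybridized total RNA of the spinal cord and the duodenum to 1-colour Agilent arrays and compared WT littermates with mice lacking IP6K2, inositol hexakisphosphate kinase 2. All mice were male and 20 weeks of age. All had been raised on the normal diet CE-2, ate the purified diet iVid-neo during the last 1 week and then went without food for 48 h. The knockout is a deletion of exon 6 of *Ip6k2*, an exon of the kinase domain. The 4 groups were WT spinal cord, KO spinal cord, WT duodenum and KO duodenum, and each had 1 array. Differences between arrays are therefore values without a test.

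Neuropeptides are made as longer precursors, cut by prohormone convertases, trimmed by carboxypeptidase E and stored in dense-core vesicles until release. They act on G protein-coupled receptors at a distance from the site of release and are degraded by peptidases at the cell surface. In the spinal cord they are known as modulators of pain and itch signals that enter through the dorsal horn. In the gut wall they are made by enteric neurons, by incoming sensory and sympathetic fibres and in part by enteroendocrine cells.

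Levels are given as log2 of the processed signal of a probe minus the 75th percentile of its array, and differences between arrays are differences of these log2 values. Each difference carries a technical SD, estimated from probes printed in 10 spots on each array, which covers the spread of spots within an array and no difference between animals. The 75th percentile was 905 units of signal for WT and 972 for labelled-KO spinal cord, and 68.0 for WT and 323 for labelled-KO duodenum. Of 39418 probes, 76.8% and 77.4% were well above background in the spinal cord and 51.6% and 66.2% in the duodenum, so dim genes were measured least well on the WT duodenum array. In the spinal cord the *Ip6k2* probe read 1.45 higher in labelled KO than in WT (technical SD 0.06) and differed by −0.21 in the duodenum (technical SD 0.08). No source used here places this probe inside exon 6, and a probe outside that exon would check nothing. Only if the probe lay inside exon 6 would the spinal cord value go against the label, and genotypes are therefore given as labelled throughout.

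Several genes of this group are known targets of cAMP signalling, which acts through the cAMP response element TGACGTCA and its core TGACG. RefSeq promoter windows of the GRCm38.p6 assembly, from 250 bases before to 50 bases after each start, were found for 8 of the 10 genes, all but *Penk* and *Grp*. Read on both strands, the full element was in 1.79% of 32851 promoter windows and, among the members, in that of *Cartpt*. The core, which every full element also holds, was in 20.8% of all windows and in those of *Tac1*, *Calca*, *Adcyap1*, *Nmu*, *Cartpt* and *Gal*, 6 of the 8 members. The element TATAAA was in 13.6% of all windows and in that of *Adcyap1*. Counted as windows, as the shares are, the 8 members had 10, of which 7 held the core, 1 the full element and 1 TATAAA. The stretches around the matches that lie before a start are shown because they are what most of these promoters share, and that of *Gal*, which lies after the start, is not. Capitals mark the element or its core, and CGTCA is the core read on the other strand.
Cartpt (chr13:99900763-99900820, minus strand): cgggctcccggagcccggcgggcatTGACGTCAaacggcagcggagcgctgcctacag
Tac1 (chr6:7554839-7554893, plus strand): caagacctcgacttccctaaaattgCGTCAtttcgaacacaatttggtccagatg
Tac1 (chr6:7554993-7555047, plus strand): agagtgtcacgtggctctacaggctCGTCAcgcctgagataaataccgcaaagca
Calca (chr7:114636393-114636447, minus strand): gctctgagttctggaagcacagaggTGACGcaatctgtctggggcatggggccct
Nmu (chr5:76363862-76363916, minus strand): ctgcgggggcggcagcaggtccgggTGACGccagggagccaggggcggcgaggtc
Adcyap1 (chr17:93198901-93198955, plus strand): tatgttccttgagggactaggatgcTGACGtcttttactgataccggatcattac
A match describes these letters only, and binding of a factor was not measured here.

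In the spinal cord, the probes of all 10 genes were well above background on the WT array, and those of 9 were on the array labelled KO, *Pdyn* being the exception. In the duodenum, 7 of the 10 were well above background on both arrays, and the probes that stand for *Pdyn*, *Calca* and *Adcyap1* were on neither. The levels below are given for WT spinal cord, labelled-KO spinal cord, WT duodenum and labelled-KO duodenum, in that order, and are compared only for the same probe, since probes differ in brightness.

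*Penk* encodes proenkephalin, the precursor of Met- and Leu-enkephalin, which act on delta and mu opioid receptors. Its levels were 5.25, 4.98, 0.83 and 0.85, so that both spinal cord arrays lay far above both duodenum arrays. *Pdyn* encodes prodynorphin, the precursor of the dynorphins, which act on the kappa opioid receptor. Its probe gave a signal of 8.81 on the WT spinal cord array, where it was well above background, and 5.42, 1.17 and 1.19 on the others, where it was not. No level of *Pdyn* in the duodenum can therefore be given.

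*Tac1* encodes the precursor of substance P and neurokinin A, made by nociceptive sensory neurons, dorsal horn neurons and excitatory enteric motor neurons. Its levels were 2.05, 1.96, −0.05 and 0.08, and within each tissue the arrays were close. *Calca* encodes calcitonin and, by alternative splicing, calcitonin gene-related peptide (CGRP), the peptide of many pain-sensing fibres. The brighter of its 2 probes, listed under NM_001033954, read 3.98 in WT and 3.84 in labelled-KO spinal cord, with signals of 14254 and 13950. On the duodenum arrays its signals were 0.886 and 1.72, not well above background. The other *Calca* probe, listed under NM_007587, was dim everywhere: its signals were 7.43 and 6.68 on the spinal cord arrays, 1.17 on the WT duodenum array, where it was not well above background, and 9.43 on the duodenum array labelled KO. The files do not say which splice product each probe reads.

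*Grp* encodes gastrin-releasing peptide, known in the spinal cord for the transmission of itch. Its levels were −0.61, −0.62, −3.72 and −4.57, and both duodenum arrays lay below both spinal cord arrays. *Adcyap1* encodes PACAP, a peptide that raises cAMP in its target cells. Its levels were −0.01 in WT and −0.25 in labelled-KO spinal cord, and its signals of 0.886 and 1.13 in the duodenum were not well above background. *Nmu* encodes neuromedin U, a peptide that acts on gut smooth muscle, feeding and immune cells. Its levels were −2.41, −2.54, −2.48 and −3.11, the narrowest span of the 7 genes measured on all 4 arrays.

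*Npy* encodes neuropeptide Y, made by inhibitory dorsal horn neurons, sympathetic fibres and some enteric neurons. Its levels were 0.20, 0.06, −0.51 and −2.05, so that the duodenum array labelled KO stood apart from the other 3. *Cartpt* encodes the precursor of the CART peptides, which are made by neurons and endocrine cells. Its levels were 1.44, 1.22, −0.77 and −1.64. *Gal* encodes galanin, made by sensory neurons after injury, by dorsal horn neurons and by enteric neurons. Its levels were 0.53, 0.42, 3.21 and 3.83, and of the 7 genes measured on all arrays it was the only one with both duodenum arrays above both spinal cord arrays.

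**Figure D1:**
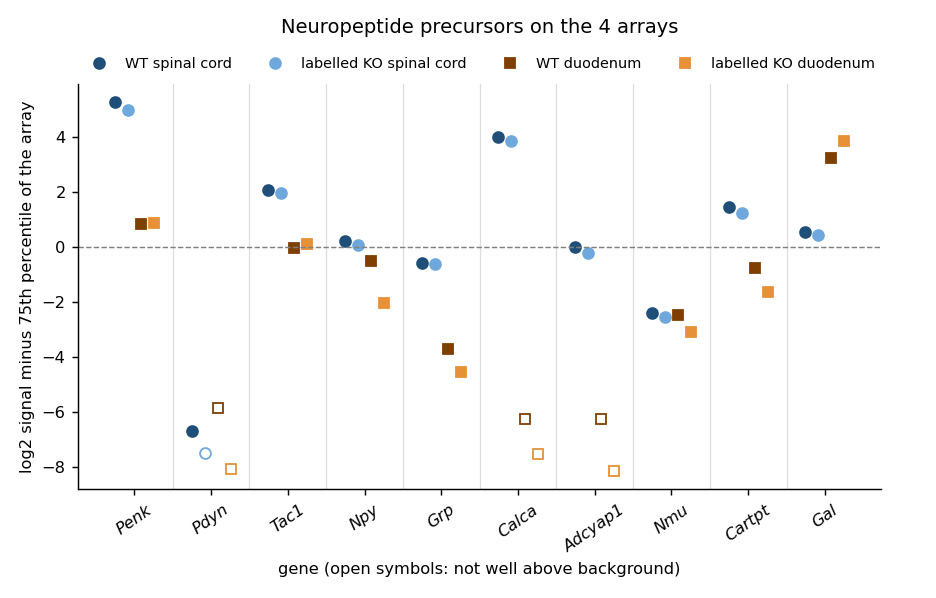
Levels of the 10 neuropeptide precursors on each of the 4 arrays, as log2 signal minus the 75th percentile of the array. Circles are spinal cord and squares are duodenum, dark for WT and light for the array labelled KO. Open symbols are probes not well above background, and the dashed line is the 75th percentile. *Gal* lies higher in the duodenum (3.21 and 3.83) than in the spinal cord (0.53 and 0.42). *Penk*, *Tac1*, *Npy*, *Grp*, *Calca*, *Adcyap1* and *Cartpt* lie lower in the duodenum, where *Calca* and *Adcyap1* have open symbols. Symbols of different genes are not to be compared in height.

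The first comparison asks how the precursors differ between the tissues. In the WT pair, 6 members were at least 2-fold lower in the duodenum, namely *Penk*, *Tac1*, *Grp*, *Calca*, *Adcyap1* and *Cartpt*, and 1, *Gal*, was at least 2-fold higher. Over all 16890 named genes well above background on at least 1 of these arrays, 27.5% were at least 2-fold lower and 30.0% at least 2-fold higher in the duodenum. In the pair labelled KO, which shares no array with the WT pair, 7 members were at least 2-fold lower, *Npy* being added, and again *Gal* was higher. The share over all 17145 genes there was 28.2% lower and 29.3% higher. Fewer cells of a type and less RNA per cell cannot be told apart in such whole-tissue RNA.

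*Penk* differed by −4.43 in the WT pair (technical SD 0.08, 21.5-fold lower in the duodenum) and by −4.13 in the labelled-KO pair (technical SD 0.06, 17.5-fold lower). *Calca* was at least 249-fold lower in the WT duodenum and at least 1070-fold lower in the labelled-KO duodenum, each set against the lowest level well above background on that duodenum array. These bounds come from the brighter probe alone. The dimmer *Calca* probe went the other way in the labelled-KO pair, with a level higher by 2.09 in the duodenum. *Adcyap1* was at least 15.7-fold and at least 62.9-fold lower in the duodenum. The larger bounds of the labelled-KO pair go with its deeper floor, since the lowest level well above background was −3.99 on the WT duodenum array and −6.22 on the other.

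*Grp* differed by −3.11 in the WT pair (technical SD 0.31) and −3.95 in the labelled-KO pair (technical SD 0.15), lower in the duodenum in both. *Tac1* was also lower, with differences of −2.10 and −1.88, and so was *Cartpt*, with −2.21 and −2.87, each with a technical SD of 0.06 to 0.10. *Npy* differed by −0.70 in the WT pair and by −2.11 in the labelled-KO pair, and so passed 2-fold in only 1 of the pairs. *Nmu* differed by −0.07 (technical SD 0.16) and −0.57 (technical SD 0.10), within 2-fold in both. *Gal* was higher in the duodenum by 2.67 (6.38-fold) and 3.41 (10.6-fold), although with quantiles within each tissue it was −0.11 and with spiked-in controls −2.37 in the WT pair.

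These scalings move all genes between the tissues. The median gene differed by 0.37 between the WT arrays and by 0.16 between the arrays labelled KO as scaled here, but by −2.32 and −2.46 with quantiles taken within each tissue and by −4.67 and −1.71 when the arrays were scaled on spiked-in control RNA. Relative to the median gene, *Gal* was higher in the duodenum under all 7 other scalings, by 1.49 to 2.30 in the WT pair and by 2.86 to 3.34 in the labelled-KO pair. On the same basis, *Penk* was lower in the duodenum, at −5.51 to −4.64 and −5.13 to −4.29. *Tac1*, *Npy*, *Grp* and *Cartpt* also kept their direction relative to the median gene under all 7 in both pairs. Without reference to the median gene, however, the WT difference of *Grp* was −0.69 and −0.58 with the normexp corrections, within 2-fold, and the *Adcyap1* bound was −1.23 and −1.27. For *Nmu* the WT value ran from −0.44 to 0.73, so that its direction between the tissues depended on the scaling.

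**Figure D2:**
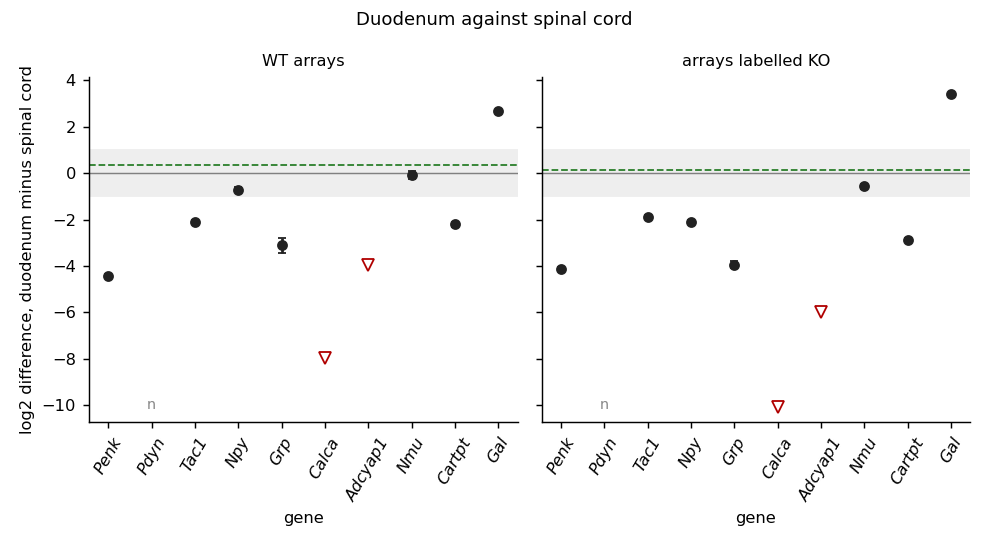
Difference of each precursor between duodenum and spinal cord (log2, duodenum minus spinal cord) in the WT pair (left) and the pair labelled KO (right). Points are measured differences with the technical SD, which is often smaller than the point, open red triangles are bounds where the duodenum probe was not well above background, n marks genes with no value, the grey band is within 2-fold, and the dashed line is the median gene (0.37 and 0.16). *Gal* alone lies above the band (2.67 and 3.41), and *Calca* has the lowest bound in both pairs (−7.96 and −10.06).

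Other neuropeptide genes, described from lists, were split between the tissues. Of 36 other precursors on the array, 31 were measurable in each pair, and 15 were at least 2-fold lower in the duodenum in each pair, against 9 higher in the WT pair and 8 in the labelled-KO pair. On the higher side stood *Pyy*, which encodes peptide YY of enteroendocrine cells, by 5.92 and 6.51. On the lower side stood *Tac2*, the precursor of neurokinin B, with a bound of −7.19 in the WT pair and a difference of −7.28 in the labelled-KO pair. The list of receptors of the members' peptides has 28 genes. It also holds *Oprl1*, whose peptide nociceptin comes from *Pnoc*, one of the other precursors and not a member. Of these 28 genes, 25 were measurable in the WT pair, where 8 were lower and 4 higher. In the labelled-KO pair 26 were measurable, with 11 lower and 5 higher. The shares over all genes were 27.5% lower and 30.0% higher in the WT pair, and 28.2% and 29.3% in the labelled-KO pair. *Vipr1*, a receptor for VIP and PACAP, was higher in the duodenum by 7.57 and 8.11, while *Oprl1*, the nociceptin receptor, was lower, at −6.50 and −6.41. Read by its dimmer probe, however, *Oprl1* was −0.66 in the WT pair, within 2-fold. *Adcyap1r1*, the receptor selective for PACAP, was lower, with a bound of −5.93 in the WT pair and a difference of −5.42 in the labelled-KO pair.

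The machinery that makes and stores peptides was mostly lower in the duodenum, with 16 of 22 genes at least 2-fold lower in the WT pair and 12 of 22 in the labelled-KO pair, and a median difference of −1.70 and −2.13. *Cadps*, which primes dense-core vesicles for release, was lower, at −7.35 and −7.76. The only gene of this list at least 2-fold higher was *Pcsk5*, a convertase, by 1.42 and 1.61, which was −1.25 and −1.05 with quantiles within each tissue and −3.62 and −0.26 with spiked-in controls. Peptidases that degrade neuropeptides went the other way, with 7 of 11 at least 2-fold higher in the WT duodenum and 8 of 11 in the labelled-KO duodenum. Their largest values were those of *Anpep*, aminopeptidase N of the brush border, higher by 9.84 and 9.34, and *Dpp4*, dipeptidyl peptidase 4, higher by 8.40 and 7.81. Beside the counts of both lists, 27.5% of all genes were lower and 30.0% higher in the WT pair, and 28.2% and 29.3% in the labelled-KO pair.

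The next comparison sets the arrays labelled KO against WT. In the spinal cord no difference or bound of the 10 members reached 2-fold, where 2.61% of 16796 named genes were at least 2-fold higher and 0.697% at least 2-fold lower. All 9 members measured on both arrays were lower on the array labelled KO, from −0.01 for *Grp* to −0.28 for *Penk*, with a median of −0.13. Over all genes measured on both arrays, 57.5% were lower and the median was −0.03. Signs that small depended on the background correction. With a normexp correction, in which local backgrounds of up to 15708 units on the WT array entered, *Penk*, *Tac1*, *Calca*, *Cartpt* and *Gal* were higher on the array labelled KO, by 0.01 to 0.25.

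*Penk*, with signals of 34561 in WT and 30597 in labelled KO, differed by −0.28 (technical SD 0.06), the largest of these differences. *Adcyap1* differed by −0.24 and *Cartpt* by −0.21, each with a technical SD of 0.06. *Npy*, *Calca*, *Nmu*, *Gal* and *Tac1* differed by −0.14, −0.13, −0.13, −0.12 and −0.09, and *Grp* by −0.01, which is less than its technical SD of 0.06. *Pdyn* was at least 1.75-fold lower on the array labelled KO, from a signal near background in WT and with a technical SD of 0.33 on the log2 scale. This bound of −0.80 was −0.13 with normexp and poor backgrounds replaced and −2.43 with plain normexp, so whether *Pdyn* was 2-fold lower was not settled by these arrays.

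The spinal cord arrays differed more in tissue markers than in these peptides. Of 8 skeletal muscle markers, 7 were at least 2-fold higher on the array labelled KO (median difference 4.02), with a summed level of 26.7 in WT and 71.1 in labelled KO, in units of the 75th percentile. The remaining marker, *Pvalb*, differed by only 0.23 and is part of both sums. Of 8 Schwann cell markers, 5 were at least 2-fold higher (median 2.52, summed level 6.62 and 21.6). Red blood cell, neutrophil and lymphocyte markers had medians of 1.21, 1.19 and 1.38, with 5 of 7, 6 of 8 and 4 of 8 at least 2-fold higher. Of 7 markers of meninges and fibroblasts, 4 were at least 2-fold higher (median 1.00). Of 7 sympathetic markers, 1 was at least 2-fold higher (median 0.28, summed level 0.796 in WT and 1.01 in labelled KO). None of the 12 pan-neuronal markers passed 2-fold (median −0.06, summed level 326 and 313), and none of 13 dorsal horn markers did (median −0.12, summed level 67.1 and 65.6). Of 13 dorsal root ganglion markers on the array none passed 2-fold (median −0.15, summed level 1.38 and 1.56). Of these, 11 were well above background on at least 1 spinal cord array. The other 2, *Scn10a* and *Mrgprd*, which mark pain-sensing ganglion neurons, were well above background on neither. The part of these markers in the differences of the members was not tested.

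In the duodenum, *Npy* was the only member past 2-fold. Its level differed by −1.54 between labelled KO and WT (technical SD 0.10, 2.91-fold lower), from signals of 47.9 in WT and 78.2 in labelled KO on arrays whose 75th percentiles were 68.0 and 323. Of 15033 named genes, 9.69% were at least 2-fold lower and 7.55% at least 2-fold higher, against 1 and 0 of the 7 members well above background. With 7 genes, these counts are near the background. The spread of all genes was wide here, since the middle 50% of them lay between −0.56 and 0.46.

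*Cartpt* differed by −0.87 (technical SD 0.11) and *Nmu* by −0.63 (technical SD 0.17). *Grp* differed by −0.84, but with a technical SD of 0.34, since its WT signal was 5.15. Galanin went the other way: *Gal* was higher by 0.62 in labelled KO (technical SD 0.07, 1.54-fold). *Tac1* differed by 0.13 (technical SD 0.09) and *Penk* by 0.02 (technical SD 0.08), of the order of their technical SD. Thus 4 of the 7 measured members were lower and 3 higher, with a median of −0.63, against −0.04 for the median gene.

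**Figure D3:**
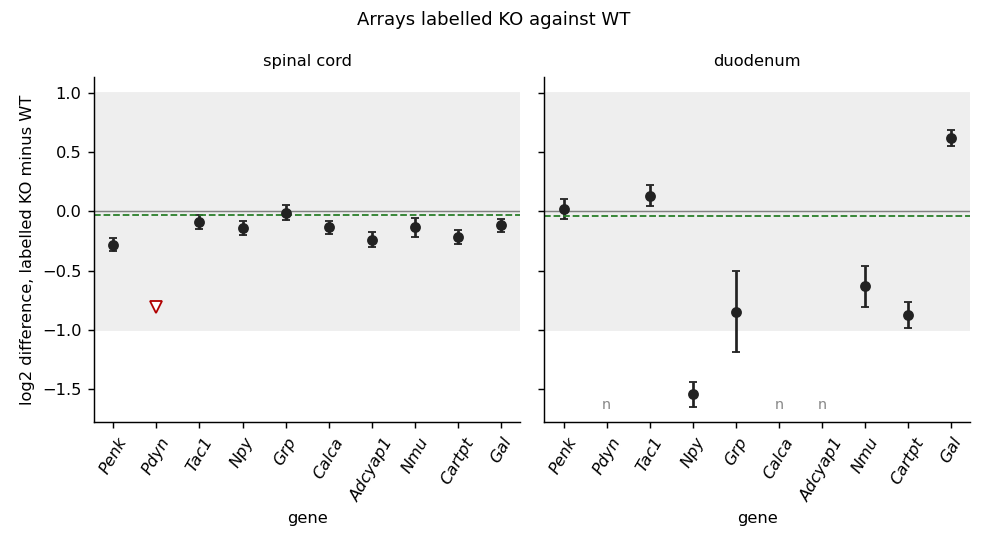
Difference of each precursor between the array labelled KO and the WT array (log2, labelled KO minus WT) in the spinal cord (left) and the duodenum (right). Points carry the technical SD of spots, the open red triangle is a bound, n marks genes with no value, the grey band is within 2-fold and the dashed line is the median gene (−0.03 and −0.04). In the spinal cord all points lie between −0.28 and −0.01, and in the duodenum only *Npy* (−1.54) lies outside the band.

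The direction of the duodenal differences was tied to the scaling. When each array was scaled on its spiked-in control probes, the median gene differed by 2.96 between labelled KO and WT, and all 7 members were at least 2-fold higher, *Npy* by 1.46. Relative to the median gene, *Npy* was lower under all 7 other scalings, at −1.59 to −1.09. *Grp*, *Nmu* and *Cartpt* were also lower under all 7 on this basis, at −1.32 to −0.80, −1.10 to −0.59 and −0.94 to −0.78. *Gal* was higher under all 7, by 0.66 to 1.24, and passed 2-fold on this basis with the normexp corrections only. *Tac1* ranged from 0.05 to 0.17 and *Penk* from −0.03 to 0.36, so that *Penk* had no settled direction.

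**Figure D4:**
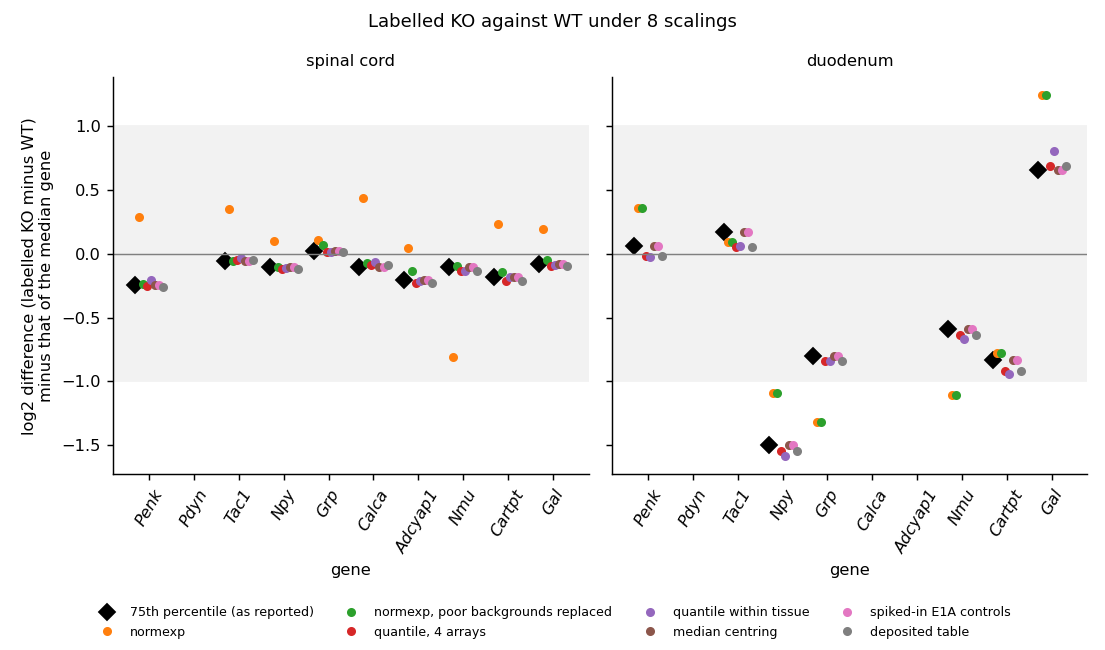
Difference of each precursor between the array labelled KO and WT, relative to the median gene (log2), under 8 scalings, for spinal cord (left) and duodenum (right). Black diamonds are the values as reported and coloured points the 7 others, the grey band is within 2-fold, and genes without a measured difference have no point. The spinal cord points of the plain normexp correction stand apart from the rest, and in the duodenum *Npy* is below the band under every scaling shown (−1.09 to −1.59).

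Neuronal and other markers of the duodenum were read beside these values. Of 12 pan-neuronal markers, 1 was at least 2-fold higher and 1 at least 2-fold lower on the array labelled KO. The 7 measured on both arrays had a median of −0.57, with 6 lower and 1, *Stmn2*, higher by 0.87. The gene at least 2-fold lower was *Syp*, with a difference of −4.14, and the other was *Syt1*, at least 2.05-fold higher and not well above background in WT. The summed level of the list was 43.8 in WT and 13.3 in labelled KO. Bright genes weigh most in such sums, and *Syp* itself had levels of 4.59 in WT and 0.46 in labelled KO. None of 10 enteric neuron markers passed 2-fold (median −0.40, summed level 18.4 and 13.2). None of 7 sympathetic markers did (median −0.54, summed level 1.43 and 1.12). Of the 6 measured on both arrays, 4 were lower and 2 higher, from −0.94 to 0.83. *Dbh* and *Th*, enzymes of noradrenaline synthesis, were among the lower ones, at −0.94 and −0.53. Of 12 enteroendocrine markers on the array 2 were at least 2-fold higher and 1 lower (median 0.27, summed level 94.3 and 120).

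Markers of other tissues also moved between the duodenum arrays. Of 10 pancreatic acinar markers, 5 were at least 2-fold lower and 1 higher on the array labelled KO (median −1.21, summed level 13283 in WT and 4341 in labelled KO). All 6 red blood cell markers well above background were at least 2-fold lower (median −3.39, summed level 1532 and 88.3). The 12 epithelial markers had a median of −0.15, with 2 at least 2-fold lower, and a summed level of 2855 in WT and 1398 in labelled KO. The part of these markers in the values of *Npy*, *Cartpt*, *Nmu*, *Grp* and *Gal* was not tested.

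Of 88 other genes of the peptide pathway, 1 passed 2-fold in the spinal cord, where 3.30% of all genes did. None of 30 other precursors well above background passed 2-fold (median −0.09), and neither did any of 25 receptors (median −0.11) or of 22 genes of processing and vesicles (median −0.13). Among the brightest of their lists, *Sst*, the somatostatin precursor, differed by −0.10, *Cck*, the cholecystokinin precursor, by −0.06 and *Cpe*, the carboxypeptidase that trims precursors, by −0.13. The brightest receptor probes were those of *Oprm1*, the mu opioid receptor, and *Tacr2*, the neurokinin A receptor, with differences of −0.03 and −0.14, and another probe of each gave 0.01 and 0.15. Of 11 peptidases 1 passed 2-fold, *Dpp4*, higher by 1.44 (technical SD 0.19) from signals of 9.94 in WT and 28.9 in labelled KO, but its difference was −1.89 with the plain normexp correction.

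In the duodenum 11 of 70 genes of these lists passed 2-fold, or 15.7%, against 17.2% of all genes. Of 20 other precursors well above background on at least 1 array, *Ppy*, which encodes pancreatic polypeptide, was higher by 2.79 (signal 8.44 in WT and 276 in labelled KO) but by 0.68, within 2-fold, with the normexp corrections, and *Npff*, the neuropeptide FF precursor, was lower, at −2.23. *Sst* and *Cck* differed by −0.71 and −0.39, within 2-fold. Receptors of galanin were dim but measured, and *Galr3* and *Galr2* were lower, at −1.43 and −1.25 (technical SD 0.20 and 0.22, signals of 10.1 to 20.7) while *Gal* was higher by 0.62. *Grpr*, the receptor of gastrin-releasing peptide, was at least 3.60-fold higher in labelled KO, not well above background in WT. *Vipr2*, another receptor for VIP and PACAP, was higher by 1.14, although it was 0.34 with the normexp corrections and −0.33 as the mean over its probes, and *Vipr1* had probes that disagreed, at 0.40 and −1.26. In all, 2 of 18 receptors were higher and 2 lower.

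Of the 22 genes of processing and vesicles, 2 were at least 2-fold higher and 2 at least 2-fold lower in the duodenum, with a median of −0.03 against −0.04 for all genes. The higher genes were *Chgb* and *Scg2*, granins of dense-core vesicles, at 1.33 and 1.15, the latter 0.67 with the normexp corrections. *Chga*, another granin, differed by 0.46. The lower genes were *Vgf*, a precursor of the granin family, and *Ptprn2*, a vesicle membrane protein, at −1.46 and −1.03 (technical SD 0.11 and 0.28). *Ptprn2* came within 2-fold with quantiles over the 4 arrays (−0.98) and as the mean over its probes (−0.01). *Chgb* and *Chga* also belong to the enteroendocrine markers. Of 10 peptidases well above background 1 was at least 2-fold lower, *Ece1*, which cleaves endothelin and substance P, at −1.29 (−0.91 with the normexp corrections), and *Anpep* and *Ace* differed by 0.09 and −0.08. With spiked-in controls all of the lower values named here for *Npff*, *Galr2*, *Galr3*, *Vgf*, *Ptprn2* and *Ece1* were above 0, as the median gene was.

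**Figure D5:**
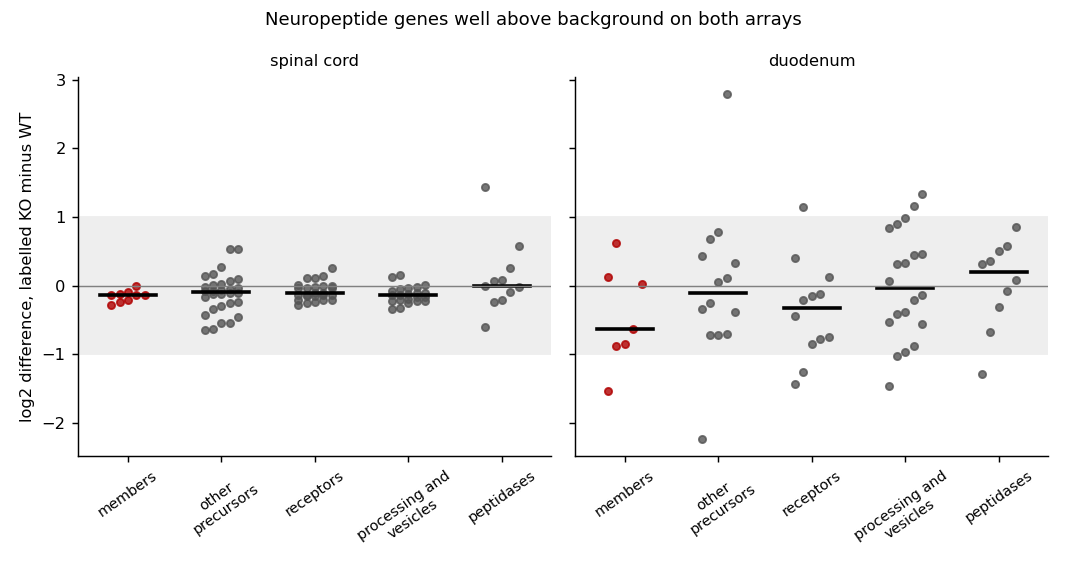
Differences between the array labelled KO and WT (log2) for the members (red) and 4 lists of other neuropeptide genes (grey), each point 1 gene well above background on both arrays, the bar their median and the grey band within 2-fold, for spinal cord (left) and duodenum (right). Nearly all spinal cord points lie within the band, with *Dpp4* (1.44) outside it. In the duodenum the points spread from −2.23 (*Npff*) to 2.79 (*Ppy*).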

How the data were processed

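Total RNA with an integrity number above 7.0 was labelled with Cy3 and hybridized to 4 Agilent arrays on 1 slide, 1 per genotype and tissue. The authors deposited the output of Agilent Feature Extraction 11.5.1.1, whose processed signal is a background-subtracted and detrended intensity. They also deposited normalized log2 values as a table. Members matched that table within 0.061 when the signals were quantile normalized over the 4 arrays, so its scale and centring are known. The text of the study's paper describes no array analysis.

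Here, spots flagged as outliers and control spots were left out, spots of a probe were averaged, and from log2 of the signal each array's 75th percentile was taken away. A gene was read by its probe with the highest mean. Of 26387 probes with an NM accession, 25864 were named through RefSeq (GRCm38.p6). A probe well above background on 1 array of a pair gave a bound, set against the dimmer array's lowest level among probes well above background, or its own level there if higher. The threshold was 2-fold. The technical SD came from the 50 probes nearest in signal among 399 printed in 10 spots. Alternatives were normexp (offset 50; R 4.3.3, limma 3.58.1) with and without poor backgrounds replaced, 2 quantile normalizations, median centring, 8 spiked-in E1A control probes, the deposited table, other probe rules, other filters and a 1.5-fold threshold. Differences were computed in Python 3.11.15 (pandas 2.3.3, numpy 2.4.6) and the scripts tested on simulated data.

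The members and lists were chosen with earlier results of these data known. The genes named are all members, from each list of neuropeptide genes up to 4 with the largest differences past 2-fold and the brightest, and *Ip6k2*. *Syp*, *Syt1*, *Stmn2*, *Dbh*, *Th*, *Pvalb*, *Scn10a* and *Mrgprd* were chosen after their values were seen. Precision is limited by the number of arrays.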

Additional observations from a re-analysis of the deposited data

Results flagged for a closer look

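For 3 members, the difference between the array labelled KO and the WT array ran in opposite directions in the tissues. *Gal* differed by −0.12 in the spinal cord and 0.62 in the duodenum, a gap of −0.74. *Penk* differed by −0.28 and 0.02, a gap of −0.30, and *Tac1* by −0.09 and 0.13, a gap of −0.22. Each tissue had 1 array per genotype, so the differences between tissues were not tested, and the duodenal values of *Penk* and *Tac1* are of the order of their technical SD. The signs also depended on the scaling. With the plain normexp correction, *Gal*, *Penk* and *Tac1* were above 0 in the spinal cord, at 0.01, 0.10 and 0.16, and *Tac1* was −0.004 in the duodenum.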

How the results depend on the processing

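No paired analysis was possible because there was only 1 array per genotype in a tissue, and for the same reason no array could be left out. Of the 96 alternative counts of members past 2-fold, 79 stayed within 1.5 times the count reported. In the spinal cord, labelled KO against WT, 1 member was lower with normexp and 1 at 1.5-fold, against 0. In the duodenum, against 0 higher and 1 lower, normexp gave 1 and 3 with or without poor backgrounds replaced, spiked-in controls 7 and 0, and a 1.5-fold threshold 1 and 4, while no filter on dim probes gave 4 lower. For duodenum against spinal cord, the WT pair had 2 members higher with poor backgrounds replaced, 0 with quantiles within tissue, and 0 higher and 10 lower with spiked-in controls, against 1 and 6. The labelled-KO pair had 0 higher with quantiles within tissue and 2 with the lowest probe of each gene, against 1.

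For the members and the named genes of the neuropeptide lists, each value past 2-fold was counted once per alternative. There were 17 sign changes, and 27 cases came within 2-fold with the same sign. These 27 cases belong to 14 values. Of 876 alternative values of these genes and of the members' medians, 477 moved by more than the technical SD, apart from those 17 sign changes. Of 35 marker genes past 2-fold in the duodenum, labelled KO against WT, 22 changed sign under at least 1 scaling, and 8 of 32 did in the spinal cord. With spiked-in controls, labelled KO against WT in the duodenum was 1.46 for *Npy*, 1.72 for *Ece1*, 1.75 for *Galr2*, 1.57 for *Galr3*, 0.77 for *Npff*, 1.98 for *Ptprn2* and 1.55 for *Vgf*, and duodenum against spinal cord was −2.37 for *Gal* and −1.12 for *Galr2* in the WT pair and −3.62 and −0.26 for *Pcsk5*. The median gene moved the same way. With quantiles within tissue, *Gal* was −0.11 in the WT pair and *Pcsk5* −1.25 and −1.05. With normexp *Dpp4* in the spinal cord was −1.89, where poor local backgrounds on the WT array entered. By mean of its probes *Vipr2* in the duodenum was −0.33, and by the lowest probe *Calca* in the labelled-KO pair was 2.09. Signal over background limited the duodenum most, where 3 of 10 members had no fold.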
